A study of Homo sapiens with 8 samples.

Results

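The genes of the mitochondrial ribosome were followed across 8 one-colour Agilent gene expression arrays of 2 thyroid cell lines. A gene was taken as a member when a non-control probe of the array carried a gene name made of MRPL or MRPS and a number, with an optional A, B or C. This gave 76 genes (47 MRPL and 29 MRPS) of 36337 gene names, 97 probes of 50599 and 151 spots of 58717. MRPL19, the only member among the genes that the study listed as lower with pre-miR-375 and higher with antagomiR-375, was set against the other 75. That list was drawn from the same arrays, so its choice of MRPL19 is not independent evidence.

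Nthy-ori 3-1 is an immortalized, non-tumor line of thyroid follicular cells, and TT is a line from a medullary thyroid carcinoma, a tumor of the calcitonin-producing C cells. Nthy-ori 3-1 cells either received pre-miR-375, a precursor molecule made to raise the miRNA (2 arrays), or were controls (2 arrays). TT cells either received AntagomiR-375, an oligonucleotide that blocks the miRNA by pairing with it (2 arrays), or were controls (2 arrays). The labels call the controls CTL without naming the reagent, which the methods give as pre-miR-CTL and antagomiR-CTL. RNA was taken 48 h after transfection with Lipofectamine, at 5 nM for the precursor and 20 nM for the antagomiR by the labels, which differ from the methods on both doses. Each line stands for a single source of cells. The methods call the replicates biological, the labels do not say what separates them, and the p-values measure only the spread between these samples.

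Mitochondrial ribosomes translate the few proteins encoded in mitochondrial DNA, all of them subunits of the respiratory chain and the ATP synthase. Their rRNAs come from mitochondrial DNA, whereas every protein of both subunits is encoded in the nucleus, made in the cytosol and imported. Part of these proteins descend from bacterial ribosomal proteins and part are found only in mitochondria. MiRNAs lower the amount of an mRNA by pairing of the seed, bases 2 to 8, with a site that is usually in the 3′ end of the transcript. The sequence of mature miR-375-3p is shown because it is the molecule raised in one line and inhibited in the other (RefSeq, GRCh38.p14, chr2:219001648-219001669, minus strand, with the seed in capitals).
hsa-miR-375-3p: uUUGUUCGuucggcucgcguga

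Depth and line identity were as follows. Each array had 32071 to 37340 spots well above background and 0 saturated spots, and the brightest probe of each of the 76 members, which stood for its gene, was well above background on all 8 arrays, as were 92 of the 97 probes. The array has 0 probes for MIR375 itself. SEC23A, the gene the study follows as a miR-375 target, had a log2 fold change of -1.39 with pre-miR-375 and of 0.65 with AntagomiR-375. The adjusted p by limma was 0.318 and 0.512, and the study chose this gene in part from these same arrays. In control cells 10 of 10 measured C cell markers were higher in TT, among them CALCA and CHGA. Nthy-ori 3-1 was higher in PAX8 and FOXE1, but TSHR was not well above background on any array of either line and NKX2-1 was so only on TT arrays. Replicates 1 and 2 of a line lay on different slides and each slide held 1 line, so line and slide cannot be told apart, and RNA integrity was scored 8 on the 2 TT control arrays but 9 on every other array. With 2 arrays per group, an exact two-sided permutation test of a single gene cannot give a p below 0.333.

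MRPL19, the counterpart of bacterial ribosomal protein L19 in the large subunit, read lower with pre-miR-375 and higher with AntagomiR-375 at the brightest of its 3 probes. This probe is at position 1151 of the RefSeq transcript, at chr2:75882659-75882718 (hg19, plus strand), and has 10 spots. On the follicular line its log2 signal after normalization stood at 12.20 and 11.97 in control and 11.80 and 11.62 in pre-miR-375 cells. The 2 groups did not overlap, with -0.40 in the replicate 1 pair and -0.35 in the replicate 2 pair. The fit put the log2 fold change at -0.37 ± 0.0814 (standard error), at an adjusted p by limma of 0.340. In the carcinoma line the log2 signal was 10.78 and 10.86 on the control arrays and 11.51 and 11.55 with AntagomiR-375. Both treated arrays were above both controls, and the fit put the log2 fold change at 0.71 ± 0.0843 (0.74 and 0.69 within the pairs), at an adjusted p by limma of 0.512. The spots of this probe on 1 array had a standard deviation of 0.0425 to 0.0771 on the log2 scale, which covers error within an array and not between samples.

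The 3 probes for MRPL19 gave different sizes of change in Nthy-ori 3-1 cells. The probe at position 7752 of the same transcript, at chr2:75889260-75889319, is the one in the study's list. Its distance to the first probe is 6601 bases on the transcript and 6601 bases on the genome, so both lie in 1 uninterrupted stretch. Its log2 signal was 8.40 and 8.22 in control and 6.42 and 6.70 in pre-miR-375 cells, and 7.47 and 7.34 in control and 8.26 and 8.27 in AntagomiR-375 cells. In Nthy-ori 3-1 its log2 fold change came to -1.75 ± 0.181 (-1.98 and -1.52 within the pairs), at an adjusted p by limma of 0.318. In TT it came to 0.86 ± 0.0966 (0.79 and 0.94 within the pairs), at an adjusted p by limma of 0.512. Of all 97 member probes it had the lowest value in Nthy-ori 3-1 and the highest in TT, and these arrays are also those on which the study listed it. The third probe, at chr2:75897810-75897869, 8550 bases further along and assigned to another transcript of the gene, read 7.34 and 7.65 in control and 7.50 and 7.45 in pre-miR-375 cells. Its pairs pointed in opposite directions there (0.16 and -0.20), with a fitted log2 fold change of -0.02. In TT it came to 0.50 (0.35 and 0.65 within the pairs). The 3 probes therefore shared their direction in TT cells, and 2 of them did so in both pairs of Nthy-ori 3-1 cells.

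**Figure D1:**
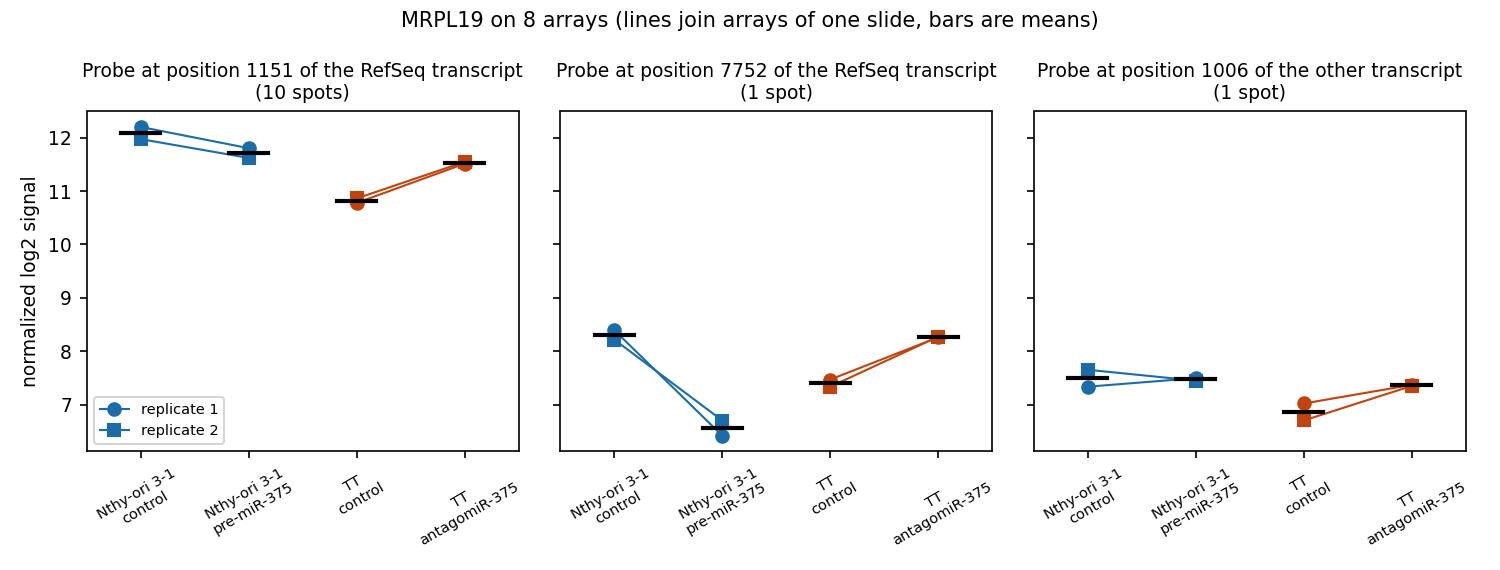
Normalized log2 signal (y axis) of the 3 MRPL19 probes in the 4 groups (x axis), with circles for replicate 1, squares for replicate 2, lines between arrays of the same slide and black bars at group means. The probe at position 7752 drops from 8.31 to 6.56 in Nthy-ori 3-1 cells, the probe at position 1151 from 12.09 to 11.71, and all 3 are higher with AntagomiR-375 in TT cells.

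With pre-miR-375 the log2 fold changes of the 76 members, MRPL19 included, lay on both sides of 0. At an adjusted p of at most 0.05, limma called 0 of the 76 members, with a background of 0% over all 36337 gene names. Without adjustment, 5 members were lower and 2 were higher at p under 0.05, against 10.5% of gene names well above background on all 8 arrays in each direction (10.5% lower and 10.5% higher). In both pairs 35 members were lower and 25 were higher, where the background was 32.4% and 40.0%. The median log2 fold change of the members was -0.05 (medians of -0.08 and -0.02 within the pairs), beside 0.04 for all gene names well above background on 8 arrays. Without MRPL19, 34 of 75 members were lower in both pairs and the median was -0.04. Of the 76 log2 fold changes, 74 lay between -0.5 and 0.5. On simulated data, the same fit called 0 of 100 probes with a log2 change of 1 and 0 of 100 with a log2 change of 2, so 0 calls were also made where changes had been put in.

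The member that read furthest below its control in Nthy-ori 3-1 cells was MRPL12, the protein of the flexible ribosomal stalk that contacts translation factors, which also binds the mitochondrial RNA polymerase. Its log2 signal was 13.05 and 13.19 in control and 11.93 and 12.07 in pre-miR-375 cells. The 2 pairs gave -1.11 and -1.12, the fit gave -1.12 ± 0.0798 at an adjusted p by limma of 0.318, and a second probe gave -1.06. The adjusted p of MRPL12 was 0.0284 with normexp background correction, 0.0443 with the median signal and 0.0448 with the deposited values, and it was the only member whose brightest probe was called under these 3. Of all probes, 3.08%, 1.02% and 1.12% were called there, and the MRPL19 probe at position 7752 was among them in each case. MRPL19 was the eighth lowest member by its brightest probe.

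Other large-subunit proteins followed MRPL12 at the low end. MRPL52, a protein found only in mitochondrial ribosomes, read 13.32 and 12.95 in control and 12.73 and 12.18 in pre-miR-375 cells, with a log2 fold change of -0.68 (-0.59 and -0.76 in the pairs). The other MRPL52 probe gave a smaller change of -0.33. MRPL32, a homolog of bacterial L32 that is cut by a protease of the inner membrane before it joins the ribosome, read 12.67 and 13.09 in control and 12.20 and 12.56 in pre-miR-375 cells. Its log2 fold change was -0.50, the same at both of its probes. MRPL13 (-0.42), MRPL18 (-0.40) and MRPS30 (-0.38), which despite its name is part of the large subunit, completed the 6 lowest log2 fold changes, and each was lower in both pairs.

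At the high end stood proteins of both subunits. MRPS36, now named KGD4 and assigned to the 2-oxoglutarate dehydrogenase complex and not to the ribosome, read 13.93 and 13.54 in control and 14.29 and 14.16 in pre-miR-375 cells. Its log2 fold change came to 0.49 (0.36 and 0.62 within the pairs) and to 0.55 at its other probe. MRPS11, the counterpart of bacterial S11 on the small subunit, read 12.73 and 12.77 in control and 13.08 and 13.20 in pre-miR-375 cells, a log2 fold change of 0.39. MRPL50, a mitochondria-specific protein, had a log2 fold change of 0.36 (0.37 and 0.36 in the pairs). MRPL55 (0.27), MRPL27 (0.18) and MRPL51 (0.17) followed, and the adjusted p of all 6 was over 0.05 from limma.

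In TT cells MRPL19 had the highest log2 fold change of the 76 members with AntagomiR-375. limma again called 0 members (background 0%), and the simulated test of this comparison likewise called 0 of 100 probes at a log2 change of 2. At an unadjusted p under 0.05, 2 members were higher (MRPL19 and MRPS34) and 1 was lower (MRPS31), against 4.85% and 4.38% of gene names well above background. In both pairs 32 members were higher and 26 were lower, with backgrounds of 30.9% and 34.6%. The median log2 fold change was 0.0086, and 0.0057 without MRPL19.

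MRPS34, a mitochondria-specific protein of the small subunit, had the next highest log2 fold change in TT cells. It read 12.86 and 12.91 in control and 13.30 and 13.30 in AntagomiR-375 cells, a log2 fold change of 0.42 (0.45 and 0.39 in the pairs, standard error 0.0849, adjusted p = 0.512 from limma). MRPL22, which lines the tunnel through which the new protein leaves, had a log2 fold change of 0.29 (0.30 and 0.28 in the pairs). MRPS18A, a large-subunit protein despite its name, had 0.23, MRPL27 0.22 and MRPL49 0.21. At the low end, MRPS31, a mitochondria-specific protein of the small subunit, read 11.17 and 11.11 in control and 10.69 and 10.78 in AntagomiR-375 cells, a log2 fold change of -0.41 (-0.48 and -0.33 in the pairs, standard error 0.0981, adjusted p = 0.512 from limma). MRPL16 (-0.30), MRPS25 (-0.27), MRPL1 (-0.19), MRPL37 (-0.17) and MRPS21 (-0.17) followed. The RNA integrity number differed by 1 between the control and the treated arrays of this line, and its part in these values was not tested.

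**Figure D2:**
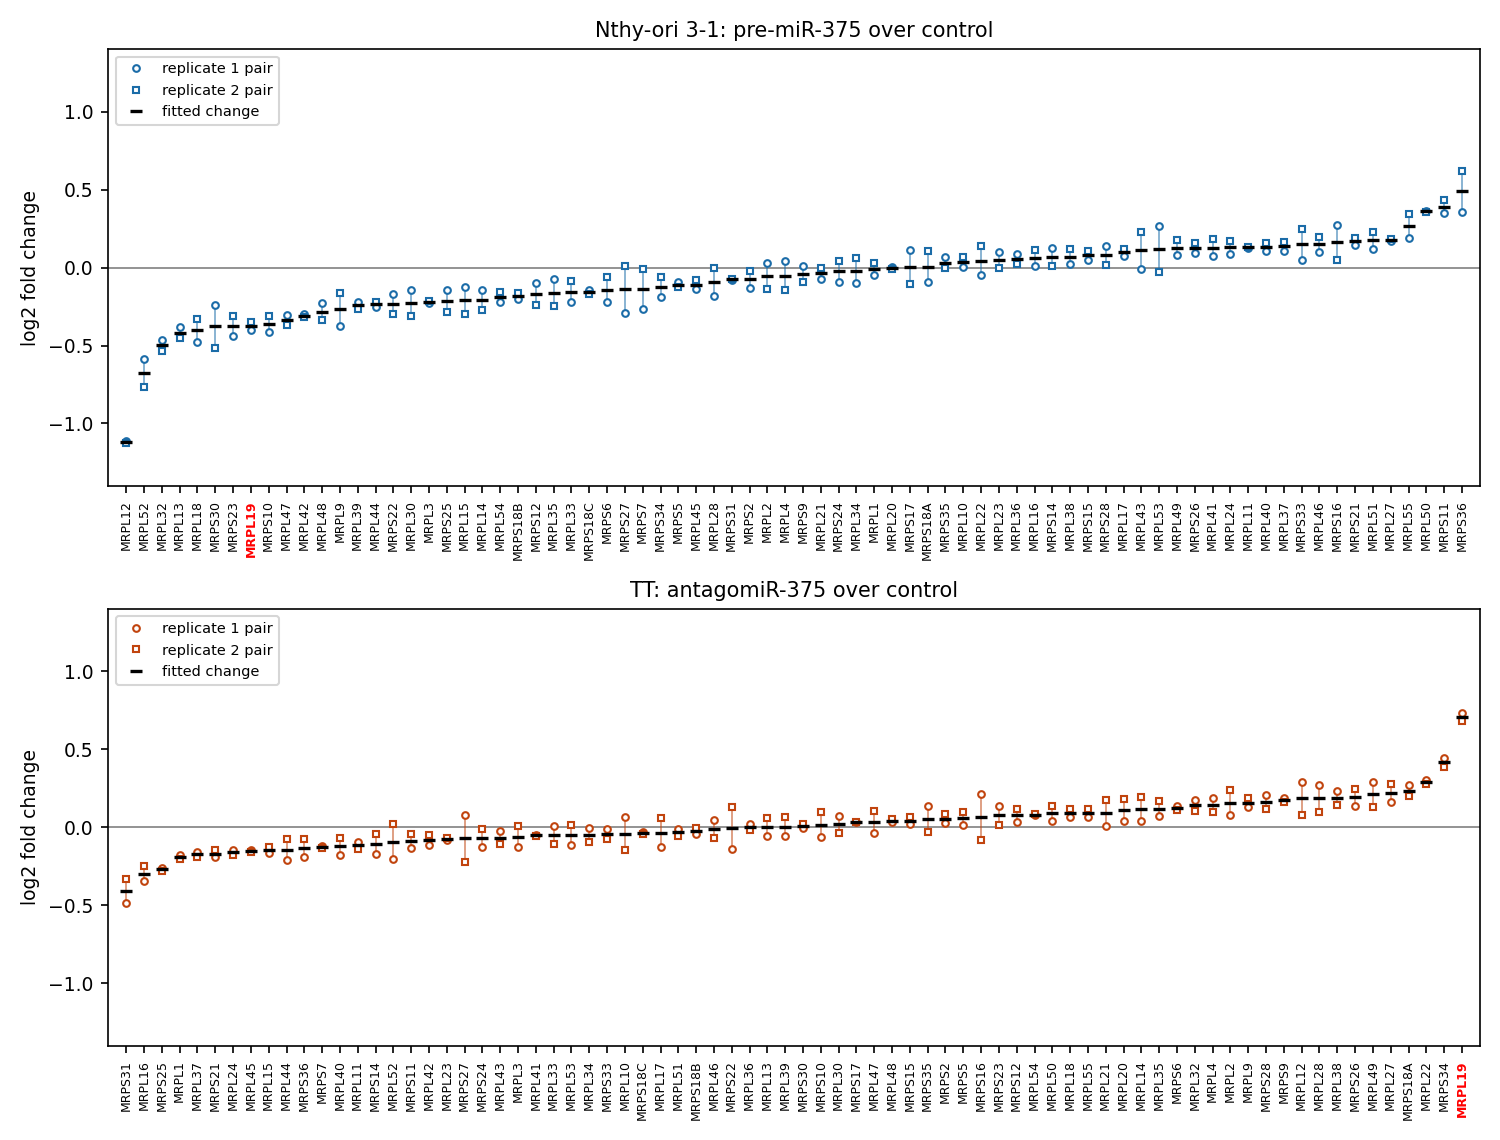
Log2 fold change (y axis) of each of the 76 member genes (x axis, ordered by fitted change) in the follicular line given pre-miR-375 (top) and in TT cells with AntagomiR-375 (bottom), with circles and squares for the 2 pairs of arrays and black dashes for the fitted value. MRPL12 lies lowest at -1.12 in the top panel, and MRPL19, in red, lies eighth from the low end there and highest at 0.71 in the bottom panel.

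Set side by side, the 2 lines gave opposite signs for part of the members. Of the 76, 16 were lower in both pairs of Nthy-ori 3-1 cells and higher in both pairs of TT cells, and 12 showed the reverse, where the background was 12.5% and 16.0% of gene names well above background. The difference between the 2 changes, fitted with the slide as a block, had an adjusted p of at most 0.05 for 0 members and for 0% of gene names. At an unadjusted p under 0.05 it counted 10 members of 76, against 24.6% of gene names well above background. The difference (TT minus Nthy-ori 3-1) was 1.30 for MRPL12 (standard error 0.146) and 1.09 for MRPL19 (standard error 0.122), the 2 highest among the members, each with an adjusted p of 0.149 from limma. MRPL12 owed most of its difference to Nthy-ori 3-1 cells, since its log2 fold change in TT was 0.19 (0.29 and 0.08 in the pairs). MRPL19 had the larger part in TT cells by its brightest probe. So did its probe assigned to another transcript (-0.02 in Nthy-ori 3-1 cells, beside 0.50 in TT). At the MRPL19 probe at position 7752 the larger part was in Nthy-ori 3-1 cells (-1.75, beside 0.86 in TT). MRPS34 read -0.12 in Nthy-ori 3-1 cells (-0.19 and -0.06 in the pairs), and MRPS36 read -0.13 in TT cells, opposite in sign to its value with pre-miR-375.

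**Figure D3:**
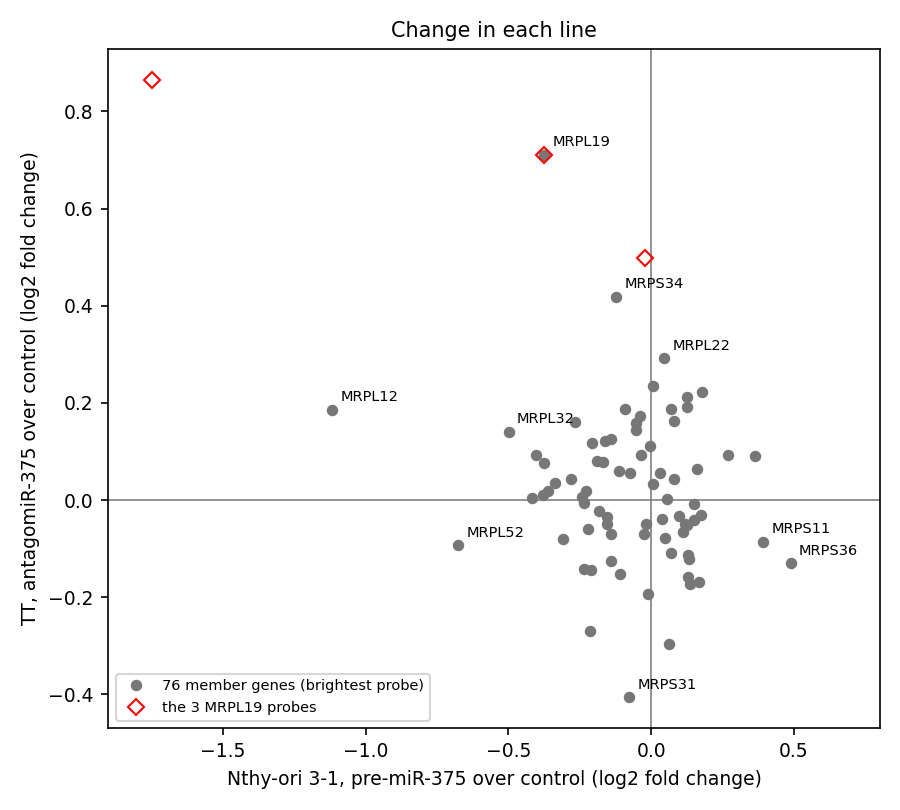
Log2 fold change with pre-miR-375, Nthy-ori 3-1 (x axis) against log2 fold change with AntagomiR-375 in TT cells (y axis), with grey points for the 76 member genes and red diamonds for the 3 MRPL19 probes. Most members lie within 0.5 of 0 on both axes, and the MRPL19 probe at -1.75 and 0.86 lies furthest to the upper left.

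Between control cells of the 2 lines the members differed far more than with either transfection. Of the 76 members, limma called 12 higher in TT and 25 lower in TT at an adjusted p of at most 0.05. The background over all gene names was 15.7% higher and 15.1% lower, and over gene names well above background on 8 arrays it was 19.8% and 23.1%. The median log2 difference of the members (TT control minus Nthy-ori 3-1 control) was -0.30, beside -0.09 for gene names well above background on 8 arrays. Of the 37 called members, 36 had the same direction between treated cells of the lines, a share not counted over all gene names. The exception was MRPL12, at -0.48 between controls (adjusted p = 0.0484 from limma) and 0.83 between treated cells, whose call was lost in 7 of 15 alternatives. The split of the calls depended on the scaling, with 6 higher and 46 lower when each line was quantile normalized alone, 7 and 47 with the deposited values, and 4 and 15 with 75th percentile scaling. Of all probes, 30.1% were called in the main setting, 43.4% with each line normalized alone, 43.4% with the deposited values and 26% with 75th percentile scaling. Without TT control replicate 1 or replicate 2, which left 1 array in that group, fewer members and a smaller share of all probes were called. With the lines normalized alone, the median of all probes was itself shifted to -0.46, against -0.05 in the main setting, and the median of the members to -0.67.

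MRPL19 was among the members lower in TT control cells. The difference was -1.27 at the brightest probe (standard error 0.132, adjusted p = 0.00143 from limma), -0.90 at the probe at position 7752 (adjusted p = 0.0165) and -0.63 at the third probe (adjusted p = 0.0654). By the brightest probe MRPL19 was the seventh lowest of the 76 members, and it was called in all 15 alternatives. Between treated cells the difference at that probe was -0.18.

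The members furthest below Nthy-ori 3-1 in TT control cells belonged to both subunits. MRPS25, a mitochondria-specific protein of the small subunit, read 9.29 and 9.09 in Nthy-ori 3-1 and 7.24 and 7.17 in TT controls, a log2 difference of -1.98 (standard error 0.153, adjusted p = 0.000480 from limma). MRPS2, the counterpart of bacterial S2, read 13.94 and 14.16 in Nthy-ori 3-1 and 12.12 and 12.06 in TT controls, a log2 difference of -1.96 ± 0.150, at an adjusted p by limma of 0.000466. The arrays of the 2 lines did not overlap for either gene. MRPL44, a large-subunit protein with a ribonuclease III-like fold, had a log2 difference of -1.75, MRPL50 of -1.53, MRPL30 of -1.49 and MRPS22 of -1.49, and all 4 were called. In all, 10 members were called with a log2 difference of -1 or less.

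Fewer members were higher in TT control cells. MRPL53, a mitochondria-specific protein of the large subunit, read 13.48 and 13.32 in Nthy-ori 3-1 and 15.15 and 15.03 in TT controls, a log2 difference of 1.69 (standard error 0.185, adjusted p = 0.00170 from limma), and its other probe gave 1.96. MRPL21, the homolog of bacterial L21, read 13.69 and 13.71 in Nthy-ori 3-1 and 14.88 on both TT controls, a log2 difference of 1.19. MRPL34 (1.02), MRPS14 (0.996) and MRPL54 (0.993) were called as well. MRPL42 had a log2 difference of 1.13 but was not called (adjusted p = 0.0806 from limma), since its Nthy-ori 3-1 controls read 8.88 and 9.90, the widest spread of any member (standard deviation of 0.72).

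By subunit, 15 of 49 large-subunit and 10 of 26 small-subunit genes were called lower in TT control cells, and 10 and 2 were called higher. The background over gene names well above background on 8 arrays was 23.1% lower and 19.8% higher, which several of the class counts lie near. The median log2 difference was -0.27 for the large and -0.36 for the small subunit. Among the 10 mitochondria-specific proteins of the small subunit, 6 were called lower and 0 higher, with a median of -0.64, while 30 large-subunit proteins with bacterial homologs had 8 lower, 6 higher and a median of -0.18. No test of the difference between these classes was made. The spread between replicates was larger in Nthy-ori 3-1 than in TT, with a median standard deviation over the members of 0.156 in Nthy-ori 3-1 and 0.0518 in TT controls.

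**Figure D4:**
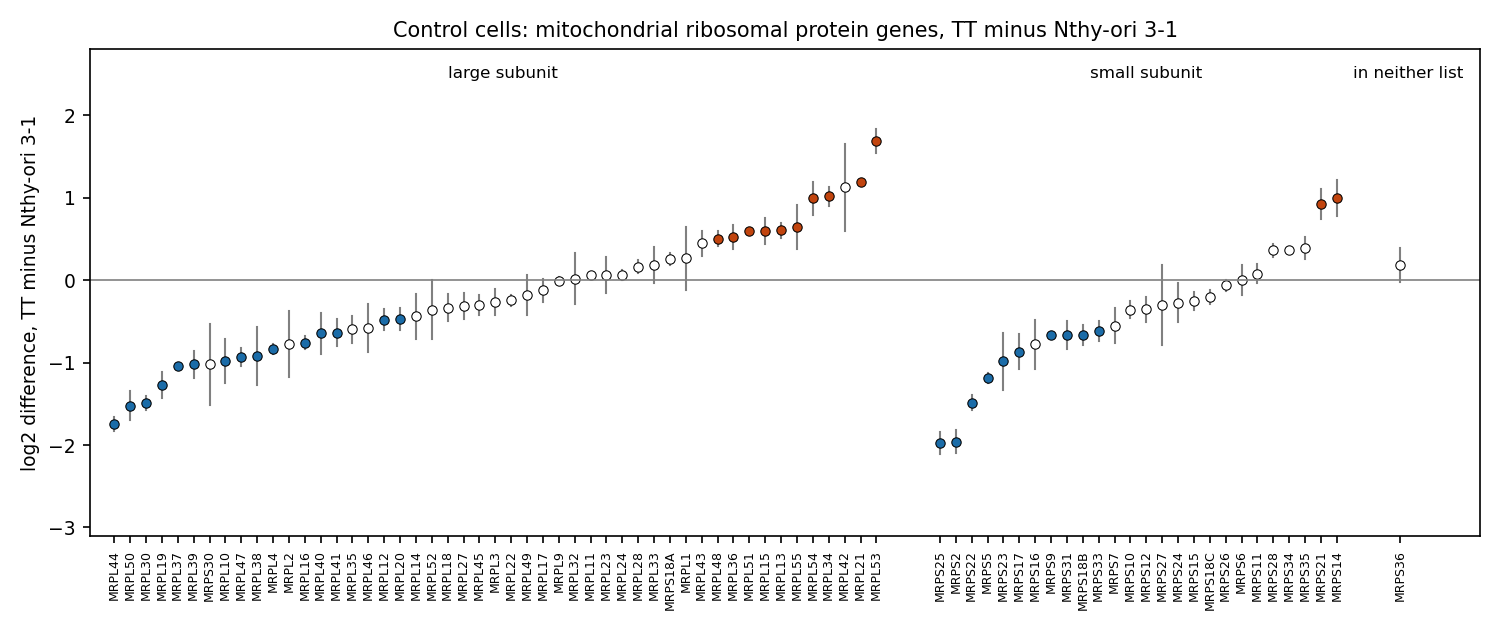
Log2 difference between TT and Nthy-ori 3-1 control cells (y axis) for each member gene (x axis), grouped by subunit and ordered by difference, with grey lines from the lowest to the highest of the 4 differences between single arrays. Blue points are the 25 members called lower in TT, red points the 12 called higher and white points those not called, and MRPS25 and MRPS2 stand lowest at about -2.0.

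Where a member had further probes, these mostly agreed on the control difference. Of 21 such probes of 19 genes, 18 had the same direction as the brightest probe between control cells, but 8 differed from it in sign or by more than 0.5. The other MRPL52 probe gave -1.53 where the brightest gave -0.36, and the other MRPS17 probe, well above background on 6 of 8 arrays, gave 0.15 where the brightest gave -0.87. With pre-miR-375 5 of the 21 differed by this measure and with AntagomiR-375 8 of the 21, among them MRPL45 (-0.69 in TT at its other probe, -0.15 at the brightest).

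Other genes of mitochondrial translation were read by the same measures. Of gene names well above background on 8 arrays, 23.1% were called lower and 19.8% higher in TT control cells. Of 12 translation factors, which load, move and release the ribosome, 8 were called lower and 1 higher in TT control cells, with a median log2 difference of -0.76. GUF1, an elongation factor-like GTPase, was at -1.15, and MTIF3, an initiation factor, was the one called higher at 0.88. Of 19 ribosome assembly genes, 5 were called lower and 1 higher (median -0.54), and of 17 mitochondrial aminoacyl-tRNA synthetases, which charge the tRNAs, 6 were called lower and 2 higher (median -0.40). Of 12 genes of mitochondrial transcription and RNA, 3 were called lower and 1 higher. With pre-miR-375, 8 of the 12 translation factors were lower in both pairs and 2 were higher, where the background was 32.4% and 40.0%. Their median was -0.27, and GFM2, which helps split ribosomes after translation, was at -1.35.

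Complex I, the first respiratory complex, joins nuclear-encoded subunits to subunits made by the mitochondrial ribosome, and its nuclear genes gave other counts than the members. Of its 37 nuclear subunits, 21 were called higher and 3 lower in TT control cells, with a median log2 difference of 0.75. The background for calls between control cells was 19.8% higher and 23.1% lower, over gene names well above background on every array. With pre-miR-375, 31 of the 37 were higher in both pairs and 0 were lower in both (median 0.26), where the background was 40.0% and 32.4%. With AntagomiR-375, 10 were higher and 17 lower in both pairs (median -0.04), where the background was 30.9% and 34.6%. Ribosomal proteins of the cytosol, 81 gene names, had 13 called higher and 26 lower between control cells (median -0.18), and medians of -0.04 in each line with transfection. Of 7 mitochondrial ribosomal proteins listed under other names, 2 were called higher (DAP3, at 0.87, and MRP63, at 1.12) and 1 lower (AURKAIP1, at -1.19).

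Promoter letters, which the rule did not use, were counted next, with no test. All 76 names were matched to RefSeq genes (75 as current symbols and MRPS36 through KGD4), and 68 had a promoter sequence, from 250 bases before to 50 bases after the start (GRCh38.p14). The letters CCGGAAG, a core of ETS factor sites, were present on either strand in 27 of 68 member promoters (39.7%), against 13.8% of 15843 promoters of protein-coding genes and 10.5% of all 27305. The letters AAGATGGCG, a core of YY1 sites, were present in 13 of 68 (19.1%), against 2.66% and 1.79%. The last 3 letters of the first motif equal the first 3 of the second, so that they can overlap, which they did in 0 member promoters. Other motifs were nearer to the background of protein-coding genes, with GCGCATGCG (NRF1) in 4.41% against 2.51%, CCAAT in 33.8% against 35.8%, TATAAA in 5.88% against 10.2% and CACGTG in 13.2% against 8.45%. The share with CCGGAAG was 5 of 9 among members called higher and 8 of 24 among those called lower in TT control cells. These matches describe letters and do not show binding.

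A set of 4 promoters is shown, for MRPL19 and for members at or next to an end of a comparison, with CCGGAAG and AAGATGGCG on either strand in capitals. It does not hold every member at such an end. MRPL19, with the highest log2 fold change of the members with AntagomiR-375, has neither motif in this window. MRPL12, lowest with pre-miR-375, and MRPS25 and MRPS2, lowest between control cells, also have neither and are not shown. MRPL52, with the second lowest log2 fold change with pre-miR-375 by its brightest probe, has both. MRPL53, with the highest log2 difference between TT and Nthy-ori 3-1 control cells, and MRPS34, with the second highest log2 fold change with AntagomiR-375, have CCGGAAG only.
MRPL19, chr2:75646533-75646832 (+): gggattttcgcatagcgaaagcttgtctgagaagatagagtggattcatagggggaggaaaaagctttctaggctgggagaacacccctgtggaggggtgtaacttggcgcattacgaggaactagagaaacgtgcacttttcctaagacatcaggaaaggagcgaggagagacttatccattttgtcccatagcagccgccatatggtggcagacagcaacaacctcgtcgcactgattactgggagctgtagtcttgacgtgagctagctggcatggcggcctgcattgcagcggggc
MRPL52, chr14:22829637-22829936 (+): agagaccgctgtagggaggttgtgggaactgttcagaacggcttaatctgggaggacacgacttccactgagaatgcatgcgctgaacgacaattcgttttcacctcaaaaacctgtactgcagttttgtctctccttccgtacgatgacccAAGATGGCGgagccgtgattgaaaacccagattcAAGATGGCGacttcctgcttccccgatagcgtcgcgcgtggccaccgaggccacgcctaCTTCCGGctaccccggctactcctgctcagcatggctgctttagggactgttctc
MRPL53, chr2:74472631-74472930 (-): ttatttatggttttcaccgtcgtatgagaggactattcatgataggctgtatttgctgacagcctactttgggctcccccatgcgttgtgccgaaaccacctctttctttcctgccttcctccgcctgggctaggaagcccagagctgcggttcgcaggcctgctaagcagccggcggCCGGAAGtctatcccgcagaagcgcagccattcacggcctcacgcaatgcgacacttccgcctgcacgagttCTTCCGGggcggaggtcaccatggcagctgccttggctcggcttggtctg
MRPS34, chr16:1773085-1773384 (-): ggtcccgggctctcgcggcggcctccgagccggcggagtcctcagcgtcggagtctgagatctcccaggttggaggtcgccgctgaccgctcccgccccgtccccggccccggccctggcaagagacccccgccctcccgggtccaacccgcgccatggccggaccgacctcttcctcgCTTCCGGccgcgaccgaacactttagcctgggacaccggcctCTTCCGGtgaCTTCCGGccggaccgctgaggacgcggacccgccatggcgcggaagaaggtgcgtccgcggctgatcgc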

How the data were processed

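RNA of 8 samples was hybridised to one-colour Agilent arrays. Per the file headers, spots were read by Feature Extraction 10.10.1.1, whose processed intensity is background subtracted and not normalized between arrays. The authors also deposited a table of log2 values that follows the rank of the log2 median intensity and has nearly the same distribution on all arrays of a line. The labels name limma, without a version, and polyA RNA, where the methods name total RNA.

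From the deposited intensity, control spots and spots marked as outliers (341 to 428 per array) were left out, log2 values were averaged per probe, and the 8 arrays were quantile normalized (limma 3.58.1, R 4.3.3). Each line was fitted with the replicate number as a block, since arrays of the same number within a line share a slide; the study's methods state no block. The numbers are those of the titles. The descriptions number the TT arrays otherwise but give the same pairs. The replicate differences of control and treated arrays correlated across probes (r = 0.785 in Nthy-ori 3-1, 0.330 in TT). Control cells were compared in a fit of all 8 arrays with slide as a random block (statmod 1.5.0, correlation of 0.501). Adjustment of p-values (Benjamini-Hochberg) ran over the whole set of 50599 probes. The probe with the highest mean stood for a gene. In each comparison the 6 highest and 6 lowest members were named, if well above background and, within a line, of the same direction in both pairs. MRPL19, MRPS18A, MRPS30, MRPS36 and probes that disagree were named too. Motifs were searched in RefSeq promoters. Fits were checked on simulated data in which 100 of 50582 probes were given each size of change. That share need not match the real data, and the number of calls depends on it. In the control comparison 24 of 100 probes with a log2 change of 1 and 60 of 100 with a change of 2 were called. Alternatives covered background, signal, normalization, dim probes, block, trend, probe choice and single arrays. The members and lists were chosen with earlier results of these data known. The number of arrays limits the precision.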

Additional observations from a re-analysis of the deposited data

How the results depend on the processing

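With the median signal, with normexp and with the deposited values, the number of members called lower with pre-miR-375 was 1, 1 and 1 in place of 0 (MRPL12 in each case, where 1.02%, 3.08% and 1.12% of all probes were called), and the MRPL19 probe at position 7752 was called too (log2 fold change of -1.38, -1.26 and -1.42, with adjusted p of 0.0496, 0.0332 and 0.0471 from limma). Without the replicate block the counts of called members were 0 in each direction in both lines, as with it, and the medians were -0.046 and 0.0086, so that leaving it out changed no call. With 75th percentile scaling the median log2 fold change of the members was -0.121 in Nthy-ori 3-1 and -0.0069 in TT cells. The TT median was 0.028 with normexp, 0.028 with the median signal and 0.018 with the mean of all probes of a gene, and 0.014 to 0.021 with 1 pair left out.

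Between control cells the median log2 difference of the members was -0.25 with the median signal, -0.61 with the deposited values, -0.67 with each line normalized alone and -0.35 with 75th percentile scaling. The members called higher and lower in TT were then 7 and 47 with the deposited values, 6 and 46 with each line normalized alone, 4 and 15 with 75th percentile scaling and 7 and 15 with the 4 control arrays alone. They were 16 and 30 with normexp and 16 and 29 with the median signal. Of all probes, 25.7% were called with the 4 control arrays alone, 31.1% with normexp and 30.9% with the median signal. With 1 control array left out, the number called higher was 7 to 9 and the number called lower 16 to 19. Both were lowest, at 7 and 16, without TT control replicate 1 and likewise without TT control replicate 2. A fit with fewer arrays has fewer residual degrees of freedom, and the cause of the other changes was not tested.

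A change of sign occurred for 25 values of members near 0, and none of them was called. With 75th percentile scaling these were, in Nthy-ori 3-1 cells, MRPL1 (0.022), MRPL16 (-0.011), MRPL22 (-0.015), MRPS18A (-0.067) and the third MRPL19 probe (0.011), and MRPL13 in TT cells (-0.072). In TT cells MRPL13 was -0.025 with normexp, -0.029 with the median signal and -0.042 with the deposited values, MRPS30 was -0.027, -0.027 and -0.038, and MRPL52 was 0.032 with the median signal and 0.025 with the deposited values. Between control cells MRPS18A was -0.152 and MRPS36 -0.114 with the deposited values, and -0.142 and -0.150 with each line normalized alone. With 1 pair left out, the sign turned in Nthy-ori 3-1 cells for MRPL1 (-0.047 to 0.027), MRPL22 (-0.048 to 0.14), MRPS18A (-0.093 to 0.11) and the third MRPL19 probe (-0.20 to 0.16), and in TT cells for MRPL13 (-0.055 to 0.063), MRPL52 (-0.20 to 0.019) and MRPS30 (-0.00073 to 0.024). MRPL19 by its brightest probe kept its direction in all alternatives, from -0.47 to -0.34 in Nthy-ori 3-1 cells (-0.71 as the mean of its 3 probes) and from 0.65 to 0.74 in TT cells, and its adjusted p from limma was at least 0.129 and 0.0845. All other values of named members kept their direction.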
